A study of Mus musculus with 36 samples.

Results

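The genes described here are 10 of the 36172 gene entries in the deposited table. They are 6 heavy chain genes of the major histocompatibility complex (MHC) class I (H2-K1, H2-D1, H2-Q4, H2-Q6, H2-Q7 and H2-T23), B2m for the light chain, the peptide transporter genes Tap1 and Tap2, and the transcriptional regulator Nlrc5. They were taken by gene symbol, and all 10 passed the filter on low counts in each fit.

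The data are polyA RNA libraries of mouse hippocampus. The study followed the Cx3cr1-NuTRAP mouse when tamoxifen starts Cre recombination early or late in life, at ages not given in the sources used here. In this mouse a Cre driven by Cx3cr1, a receptor gene that microglia and the macrophages of the brain's borders express, switches on a GFP tag on ribosomes. Translating ribosome affinity purification (TRAP) then pulls the tagged ribosomes and their RNA out of the homogenate with an antibody against GFP, and the input is a part of the same cleared homogenate taken before the pulldown. All mice had this genotype and all had been induced, so no uninduced control enters a comparison. Young mice, induced early, gave 10 input libraries (5 female, 5 male). Old mice induced early gave 12 input libraries (7 female, 5 male). Old mice induced late gave 7 input libraries (5 female, 2 male) and 7 TRAP libraries from the same animals. The protocol gives the ages as 6 and 22 months.

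MHC class I molecules show peptides from a cell's own proteins on its surface, where CD8 T cells and natural killer cells read them. A heavy chain folds with the light chain beta-2 microglobulin in the endoplasmic reticulum and is loaded with a peptide that the transporter, a pair of Tap1 and Tap2, has carried in from the cytosol. Interferons raise the genes of this pathway in most cells, through interferon-response elements in their promoters and through Nlrc5. In healthy brain tissue class I levels are low, and microglia are among the cells that express it.

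Library totals ran from 12897306 to 20448675 estimated counts. Levels are given in CPM, a gene's counts relative to the total of its library, scaled over all 36 libraries. The pulldown was checked with Cx3cr1, which read 32.3 to 44.5 CPM in old late input and 579.5 to 908 CPM in TRAP. Summed over 25 microglial marker genes, input libraries held 709 to 830.4 CPM in young, 957 to 1152 in old early and 1013 to 1490.2 in old late mice, and TRAP libraries held 18504 to 30012. Markers of oligodendrocytes were lower in TRAP than in input (8 of 8 called, median log2 difference -1.33). Astrocyte markers fell less (7 of 8, median -0.43). Neuronal markers stayed near their input share, with 3 of 7 tested called lower and a median of -0.13. Their sum was 4829 to 6316 CPM in TRAP and 6124 to 6697 in old late input. Markers of border macrophages (8 of 8) and endothelial cells (10 of 10) were called higher, with median log2 differences of 3.81 and 1.15. Library numbers in the titles run in separate blocks for young, old early and old late mice, so anything that follows this number cannot be told apart from the group.

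The 6 heavy chains descend from common ancestors and are hard to separate by short reads. Their coding sequences were between 81.1% identical (H2-D1 and H2-T23) and 95.4% identical (H2-Q6 and H2-Q7) in the GENCODE M21 transcripts. Of all 50-base windows in its transcript, H2-K1 shared 8.79% with a transcript of another gene, H2-D1 14.3%, H2-T23 29.8%, H2-Q6 35%, H2-Q4 39.2% and H2-Q7 40.2%. These shares count transcripts of any gene on either strand, not only class I genes. H2-Q4 shared 7.68% with H2-Q6 but also 4.76% with Olfr204. H2-T23 shared 7.1% with H2-D1 and 5.48% with Rab33b. For H2-Q4 the gene with most shared windows was Gm11131, an antisense transcript that overlaps it, and the sources used here do not say whether counting used strand. B2m and Nlrc5 shared 0 windows, Tap1 6.47% and Tap2 12.6%. The longest stretch that the coding sequences of H2-Q6 and H2-Q7 share is 265 bases, from coding base 605 to 869 in both. It is shown because a read from inside it cannot be placed in either gene by sequence alone. The capitals mark 91 bases that H2-K1 and H2-D1 also hold unbroken.
H2-Q6 and H2-Q7: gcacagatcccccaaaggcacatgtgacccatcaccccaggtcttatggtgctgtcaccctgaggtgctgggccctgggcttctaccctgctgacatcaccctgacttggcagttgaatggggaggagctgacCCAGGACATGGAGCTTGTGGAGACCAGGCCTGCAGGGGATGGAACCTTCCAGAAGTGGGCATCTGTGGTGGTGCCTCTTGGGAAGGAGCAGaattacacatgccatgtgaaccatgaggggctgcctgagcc
Values of the 3 Q-region genes are therefore uncertain as to which gene the reads came from, and H2-Q7 shared most windows (20.1%) with another Q gene, H2-Q5. The same limit holds to a lesser degree for H2-T23, H2-D1 and H2-K1. The coding sequences of H2-T23 and H2-D1 share an unbroken stretch of 145 bases.

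The promoters are shown because class I genes are known to be controlled through a short upstream block that binds NF-kappa-B, interferon regulatory factors and the X and Y box proteins that Nlrc5 works with. RefSeq promoter sequences on GRCm38.p6 were matched for 8 of the 10 genes, Tap2 and Nlrc5 not among them. The windows run from 180 to 31 bases before the annotated start, on the gene's strand, and are printed for the 5 genes whose window touches no annotated UTR. Capitals mark matches, on either strand, to a kappa-B element (the first capitals of H2-K1), the interferon-stimulated response element (GAAA, any 2 bases, GAAA), its class I form GAAGTGAAA, TGACG (the core of the X2 box) and CCAATC (the Y box).
H2-K1, chr17:34000364-34000513, minus strand: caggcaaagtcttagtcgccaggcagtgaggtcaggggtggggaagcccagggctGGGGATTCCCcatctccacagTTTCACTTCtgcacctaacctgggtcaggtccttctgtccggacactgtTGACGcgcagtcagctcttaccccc
H2-Q4, chr17:35379437-35379586, plus strand: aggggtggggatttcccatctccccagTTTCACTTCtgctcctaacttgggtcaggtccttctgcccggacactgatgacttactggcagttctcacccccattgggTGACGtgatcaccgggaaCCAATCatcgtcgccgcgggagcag
H2-Q6, chr17:35424670-35424819, plus strand: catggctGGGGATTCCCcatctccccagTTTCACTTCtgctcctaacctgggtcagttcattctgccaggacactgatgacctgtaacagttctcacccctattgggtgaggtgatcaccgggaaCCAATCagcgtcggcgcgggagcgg
H2-Q7, chr17:35438975-35439124, plus strand: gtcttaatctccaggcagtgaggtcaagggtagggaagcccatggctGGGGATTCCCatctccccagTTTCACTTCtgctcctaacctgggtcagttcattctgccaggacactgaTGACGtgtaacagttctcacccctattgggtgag
B2m, chr2:122147507-122147656, plus strand: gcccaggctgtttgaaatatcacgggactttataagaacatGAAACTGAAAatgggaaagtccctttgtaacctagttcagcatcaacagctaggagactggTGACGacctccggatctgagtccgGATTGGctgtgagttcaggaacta
In the 250 bases before the start, the kappa-B letters were in 4 of the 8 promoters (H2-K1, H2-D1, H2-Q6, H2-Q7) and in 0.0861% of 32536 mouse promoters of the same length. GAAGTGAAA was in 5 (the 4 above and H2-Q4) and in 0.403% of all, and the interferon-stimulated response element in 2 (H2-T23 and B2m) and in 2.98% of all. The short Y box letters were in 8 of 8 and in 14.6% of all, and the X2 core in 6 of 8 and in 17.9% of all. Their places differed. The Y box letters lay at -6 to -1 from the start in H2-K1. In Tap1 they lay at -222 to -217, ahead of the X2 letters at -86 to -82. These 2 counts therefore do not show that the letters stand together as the upstream block. No match overlapped another. A match describes the letters in this window and is not evidence of binding.

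Per kilobase of transcript, B2m was the most abundant member in each group and Nlrc5 the least. In young input the order of mean CPM per kilobase was B2m 61.2, H2-D1 20.03, H2-K1 15.5, H2-Q4 10.9, H2-T23 7.07, Tap2 4.03, Tap1 1.27, H2-Q7 0.3, H2-Q6 0.186 and Nlrc5 0.0668. H2-D1 and H2-K1 overlapped in range across animals but H2-D1 was above H2-K1 in 10 of 10 young libraries. H2-Q7 was above H2-Q6 in 8 of 10 and H2-Q6 above Nlrc5 in 7 of 10, so these neighbours were not separated beyond their spread. In TRAP, B2m read 1141 ± 443 CPM per kilobase (SD, n = 7), H2-D1 404 ± 258, H2-K1 245 ± 161 and H2-T23 97.7 ± 41.1. H2-T23 stood above H2-Q4, at 31.5 ± 17.1, in 7 of 7 TRAP libraries, whereas H2-Q4 was above H2-T23 in 10 of 10 young, 11 of 12 old early and 6 of 7 old late inputs. H2-Q7, at 8.95 ± 11.1, was above Tap1, at 8.21 ± 4.34, in 2 of 7 TRAP libraries only.

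**Figure D1:**
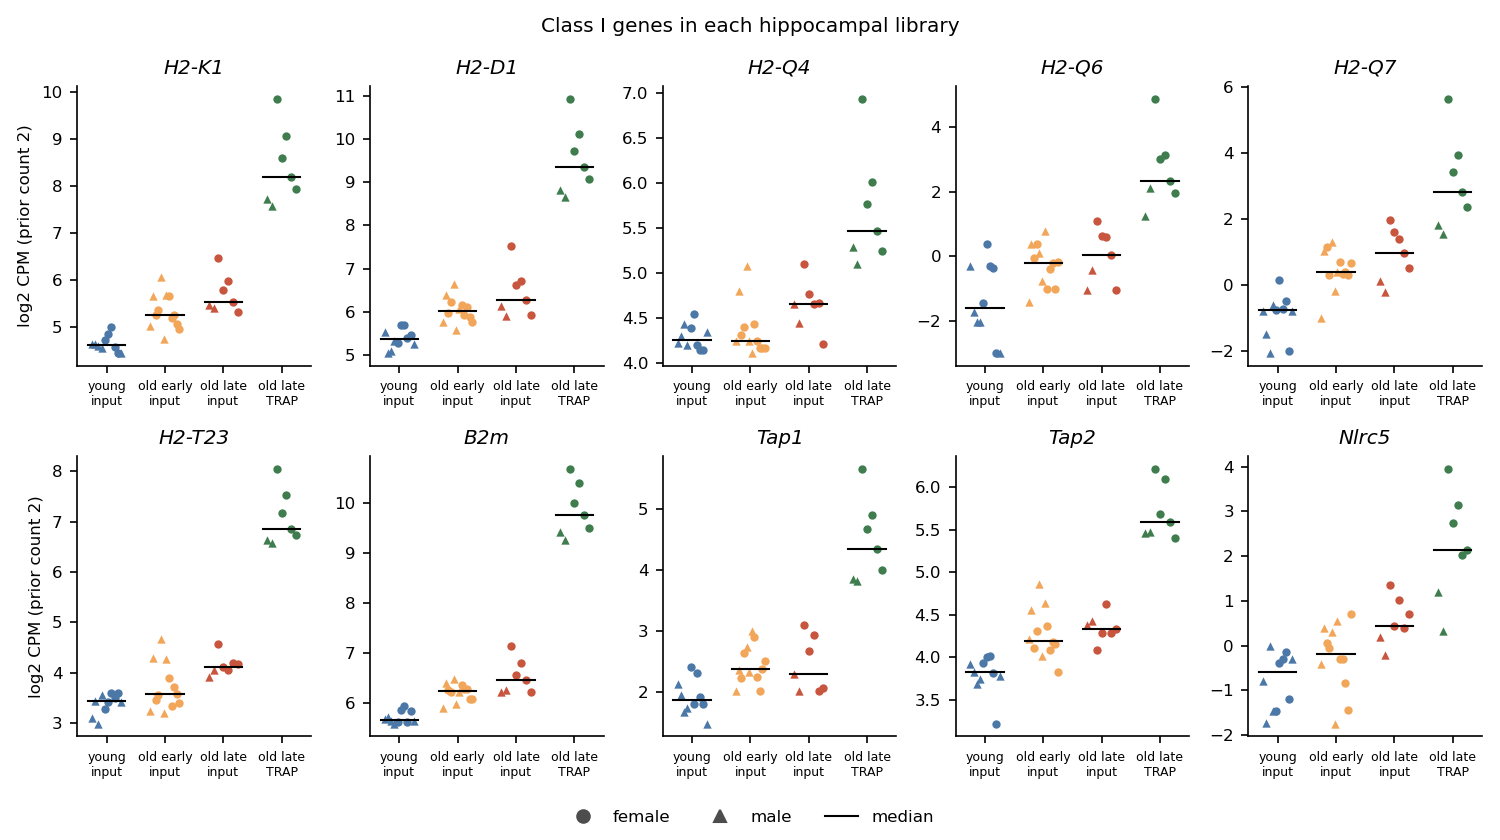
Level of each gene in each of the 36 libraries, as log2 CPM with a prior count of 2, by group, with circles for females, triangles for males and a line at the group median. Each panel has its own axis. Every gene has its highest median in TRAP, and young libraries hold the lowest medians for every gene except H2-Q4, whose young and old early medians nearly coincide.

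Most of the class I genes were higher in the hippocampus of old than of young mice. Old early input exceeded young input for 7 of the 10 genes (edgeR quasi-likelihood test, Benjamini-Hochberg adjusted p under 0.05), against 13% of all 14948 genes tested called higher and 25.6% called in either direction. The median log2 difference of the 10 genes was 0.60, and of all genes 0.01. H2-Q4, H2-Q6 and Nlrc5 did not pass. Among females alone 3 passed (H2-K1, H2-Q7 and B2m), beside 8.06% of all genes. Old late input exceeded young input for 10 of 10, against 17% of all genes called higher and 34.5% called, with a median of 0.95 against 0.01, and among females alone for 8 of 10, beside 18.8% of all genes. Both comparisons use the same young libraries. In whole tissue, more cells of a type and more RNA per cell cannot be told apart. Microglial markers moved with these differences: 23 of 25 were called higher in old early and 25 of 25 in old late input, with median log2 differences of 0.46 and 0.64. So did those of oligodendrocytes, 7 and 8 of 8 called higher with medians of 0.34 and 0.49, and blood, 3 and 4 of 6 tested. Among 15 T and NK cell markers only 2 were tested, with 2 called higher in old early and 1 in old late. The part of these cells in the class I differences was not tested.

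Class I RNA was a larger share of the pulldown than of the input it was taken from. TRAP exceeded old late input for 10 of 10 genes, against 30.4% of 14596 genes called higher and 59.2% called, with log2 differences between 1.10 and 3.33 and a median of 2.70 (all genes, -0.02). The 25 microglial markers had a median of 4.28 and a lowest value of 2.93, and the 8 border macrophage markers 3.81 and 3.15, so 6 of the 10 genes lay below every marker of either list. Of all called genes, the share called higher was 51.4% with TMM scaling, 38.3% with library size alone and 34% with upper-quartile scaling, which moved the median of all genes to -0.13 and -0.16, and the 10 genes were called higher under each. In all 7 animals each of the 10 genes was higher in TRAP than in the animal's own input. The share of all genes for which this holds is not given here, so the count is a description.

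**Figure D2:**
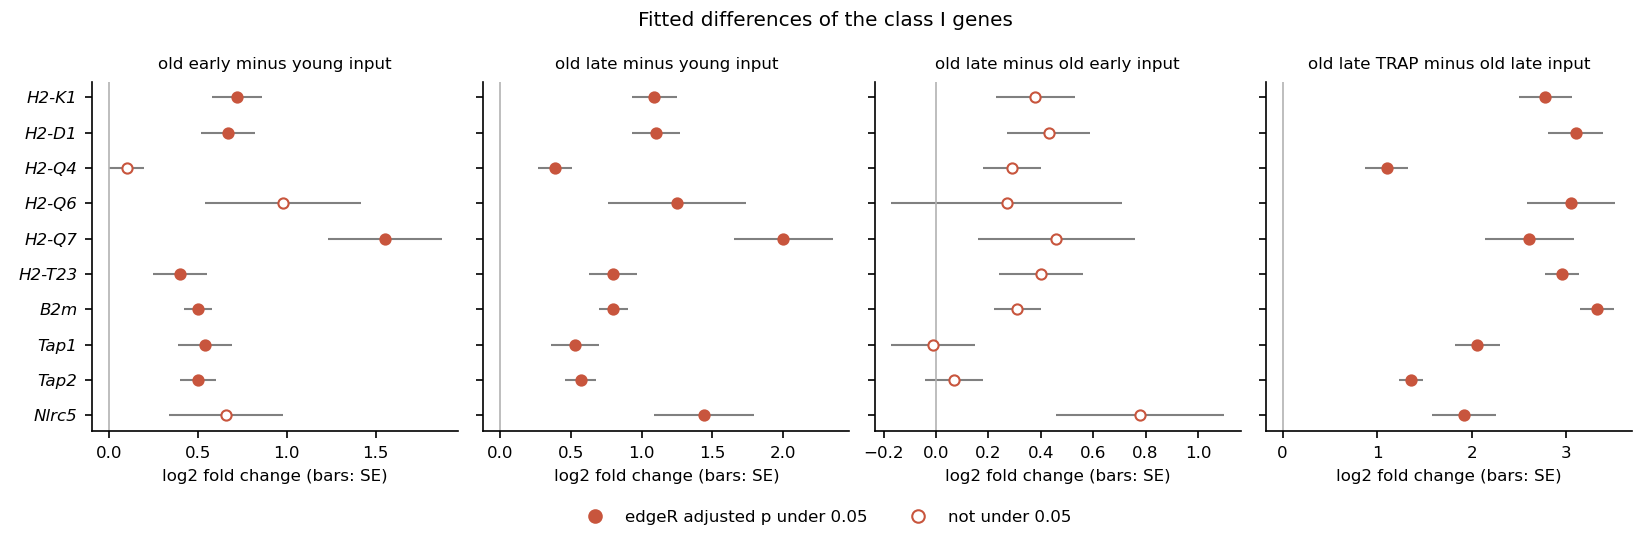
Fitted log2 fold change of each gene with its standard error, in 4 comparisons, with filled circles where the edgeR adjusted p was under 0.05. The horizontal axes differ between panels. Filled circles number 7 in old early against young, 10 in old late against young, 0 in old late against old early and 10 in TRAP against input.

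H2-K1 and H2-D1 are the classical, polymorphic heavy chains that present peptides to CD8 T cells. H2-K1 lies at chr17:33996012-34000333 and H2-D1 at chr17:35263094-35267497 (mm10, as deposited). H2-K1 read between 21.6 and 31.8 CPM in young input (median 24.4), between 26.9 and 66.8 in old early input (median 38.1) and between 39.5 and 87.7 in old late input (median 45.8). The old late and young libraries did not overlap, while 10 of 12 old early libraries lay above the highest young one. H2-K1 was 1.64-fold higher in old early than in young input (log2 0.72, SE 0.14, edgeR adjusted p = 0.000302) and 2.13-fold higher in old late (log2 1.09, SE 0.16, adjusted p = 4.59e-06). In TRAP it read between 189.7 and 924 CPM (median 291), a log2 difference of 2.78 from input (SE 0.28, edgeR adjusted p = 2.08e-07).

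H2-D1 read between 33.1 and 52.3 CPM in young input (median 41.1), between 47.9 and 100.2 in old early (median 65.2), between 59.4 and 183 in old late (median 77) and between 404 and 1946 in TRAP (median 655). All 7 old late inputs lay above all 10 young ones, and all 7 TRAP libraries above all inputs of the same group. Its differences were close to those of H2-K1, at log2 0.67 (SE 0.15, edgeR adjusted p = 0.00112) for old early and 1.10 (SE 0.17, adjusted p = 9.99e-06) for old late against young, and 3.10 (SE 0.29, adjusted p = 8.37e-08) for TRAP. Among females alone, the old early difference of H2-D1 was 0.49 with an edgeR adjusted p of 0.103. Within animals, TRAP held 8.51 times the input level of H2-D1 at the median and between 6.37 and 10.6 times over the 7 mice.

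The Q-region genes H2-Q4, H2-Q6 and H2-Q7 encode non-classical heavy chains, which vary less between individuals. H2-Q7, and other Q genes close to it, encode the Qa-2 antigen. H2-Q4 lies at chr17:35379617-35384674, H2-Q6 at chr17:35424877-35428361 and H2-Q7 at chr17:35439155-35443773. H2-Q4 had the smallest differences of the 10 genes between each old group and young input. It read between 17.6 and 23.3 CPM in young input (median 19.1), between 17.2 and 33.6 in old early (median 18.8), between 18.5 and 34.3 in old late (median 25.2) and between 34.2 and 122 in TRAP (median 44.1). Young and old early libraries covered the same range but for 2 high old early libraries, replicates 2 and 5. The old early difference was log2 0.10 (SE 0.10, edgeR adjusted p = 0.522), it was -0.03 among females and -0.07 without those 2 libraries, and the old late difference was 0.39 (SE 0.12, adjusted p = 0.0106). TRAP enrichment of H2-Q4 was the smallest of the 10, at log2 1.10 (SE 0.23, edgeR adjusted p = 0.000493), and within animals its TRAP level was 1.54 to 3.57 times the input level.

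H2-Q6 and H2-Q7 were scarce. Over the 10 young libraries H2-Q6 summed to 64.5 counts and H2-Q7 to 73.1, and 5 young libraries for H2-Q6 and 2 for H2-Q7 held 3 counts or fewer. H2-Q7 read between 0.125 and 0.976 CPM in young input (median 0.47), between 0.377 and 2.41 in old early (median 1.17), between 0.744 and 3.79 in old late (median 1.85) and between 2.81 and 49.7 in TRAP (median 6.93). Groups overlapped in each comparison, with 10 of 12 old early and 6 of 7 old late libraries above every young one. H2-Q7 had the largest differences of the 10 genes from young input, 2.92-fold in old early (log2 1.55, SE 0.32, edgeR adjusted p = 0.000541) and 4.01-fold in old late (log2 2.00, SE 0.35, adjusted p = 5.34e-05). These sizes depend on reads being given to the right Q gene. With the reads of the Q genes other than H2-Q4 added into 1 gene, a choice made after seeing the data, the differences were 0.98 for old early (edgeR adjusted p = 0.00122), 1.28 for old late (0.000177) and 2.28 for TRAP (0.000193). With H2-Q4 added too they were 0.20 (edgeR adjusted p = 0.158), 0.50 (0.00198) and 1.37 (0.000511). H2-Q4 alone gave 86% to 96% of that sum in young, 75.5% to 89.1% in old early and 80.9% to 89.4% in old late inputs. In input the sum therefore mostly repeats the values of H2-Q4. In TRAP H2-Q4 gave 56.5% to 83.7% of it.

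H2-Q6 read between 0 and 1.17 CPM in young input (median 0.206), between 0.252 and 1.61 in old early (median 0.767), between 0.36 and 2.02 in old late (median 0.893) and between 2.24 and 29.5 in TRAP (median 4.91). TRAP and input did not overlap, but the input groups did. The old early difference was log2 0.98 (SE 0.44, edgeR adjusted p = 0.102), and it passed, at 1.32 with an adjusted p of 0.0346, without young replicate 6. It also passed with limma voom (1.4, limma voom adjusted p = 0.0438). The old late difference of 1.25 (SE 0.49, edgeR adjusted p = 0.0448) was no longer called when any 1 of 11 of the 17 libraries was left out (young replicates 2, 3, 4, 5, 9 and 10, old late replicates 2 to 6), with adjusted p from 0.0505 to 0.125. TRAP exceeded input by log2 3.05 (SE 0.47, edgeR adjusted p = 3.28e-05).

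H2-T23 encodes the non-classical heavy chain Qa-1, which presents leader peptides of other class I molecules to the CD94/NKG2 receptors of natural killer and CD8 T cells. It lies at chr17:36029977-36032701. It read between 7.79 and 12 CPM in young input (median 10.7), between 9.12 and 25.4 in old early (median 11.8), between 15 and 23.7 in old late (median 17.3) and between 95.8 and 262 in TRAP (median 115). Old early libraries mostly lay within the young range, 5 of 12 above it, whereas 7 of 7 old late libraries lay above every young one. The old late difference was log2 0.80 (SE 0.17, edgeR adjusted p = 0.00044) and the TRAP difference 2.96 (SE 0.18, adjusted p = 3.96e-10). The old early difference of 0.40 (SE 0.15) was at the threshold, with an edgeR adjusted p of 0.0433. It was no longer called when any 1 of 13 of the 22 libraries was left out (young replicates 1 to 6, 8 and 10, old early replicates 2, 5, 7, 8 and 10), with adjusted p from 0.0507 to 0.114, and it was 0.10 among females (adjusted p = 0.662) and 0.18 without old early replicates 2 and 5 (0.28).

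B2m encodes beta-2 microglobulin, which every class I heavy chain needs to fold and reach the surface. It lies at chr2:122147687-122153082, outside the MHC region. Its coefficient of variation was 8.55% in young and 11.6% in old early input, the lowest of the 10 genes in both groups. It read between 48 and 61.2 CPM in young input (median 50.8), between 59.8 and 89.1 in old early (median 76), between 74.4 and 139.6 in old late (median 88.6) and between 609 and 1631 in TRAP (median 859). Of 12 old early libraries 11 lay above the highest young library, and the old late libraries all did. B2m was 1.41-fold higher in old early (log2 0.50, SE 0.08, edgeR adjusted p = 5.57e-05) and 1.74-fold higher in old late than in young input (log2 0.80, SE 0.10, adjusted p = 2.55e-07). Its TRAP difference, log2 3.33 (SE 0.18, edgeR adjusted p = 6.68e-11), was the largest of the 10 genes. Within animals B2m was 7.97 to 12 times the input level in TRAP. The microglial markers, by the mean of their log2 CPM, were 16.1 to 21.1 times the input level.

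Tap1 and Tap2 encode the subunits of the transporter that moves peptides into the endoplasmic reticulum. Tap1 lies at chr17:34187556-34197225 and Tap2 at chr17:34204479-34216321. Tap1 read between 2.68 and 5.23 CPM in young input (median 3.54), between 3.92 and 7.95 in old early (median 5.07), between 3.93 and 8.43 in old late (median 4.8) and between 14 and 50.03 in TRAP (median 20.2). Old and young libraries overlapped, with 5 of 12 old early and 3 of 7 old late libraries above every young one. Its differences were log2 0.54 for old early (SE 0.15, edgeR adjusted p = 0.00811) and 0.53 for old late (SE 0.17, adjusted p = 0.0163), the latter falling to 0.41 (adjusted p = 0.0633) without old late replicate 3. Among females alone they were 0.38 (edgeR adjusted p = 0.274) and 0.56 (adjusted p = 0.0755).

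Tap2 read between 9.18 and 16 CPM in young input (median 14), between 14.1 and 28.8 in old early (median 18.2), between 16.9 and 24.4 in old late (median 20.04) and between 42.2 and 74.1 in TRAP (median 48). The old late libraries all lay above the young ones, as did 10 of 12 old early libraries. Tap2 differed from young by log2 0.50 in old early (SE 0.10, edgeR adjusted p = 0.000323) and 0.57 in old late (SE 0.11, adjusted p = 0.000215), although among females the old early difference was 0.34 with an adjusted p of 0.1. In TRAP the transporter genes exceeded input by log2 2.06 for Tap1 (SE 0.24, edgeR adjusted p = 1.59e-06) and 1.36 for Tap2 (SE 0.13, adjusted p = 1.05e-07), with no overlap of TRAP and input libraries for either.

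Nlrc5 encodes a regulator that drives the transcription of class I genes, B2m, Tap1 and the immunoproteasome. It lies at chr8:94472763-94527272. Its counts were low, from 2.79 to 15 per young library. Nlrc5 read between 0.166 and 0.873 CPM in young input (median 0.552), between 0.182 and 1.53 in old early (median 0.754), between 0.74 and 2.42 in old late (median 1.24) and between 1.12 and 15.2 in TRAP (median 4.25). Each old input group overlapped young input, and TRAP overlapped old late input, with 6 of 7 old late libraries above every young one and 5 of 7 TRAP libraries above every old late input. The old early difference was log2 0.66 (SE 0.32, edgeR adjusted p = 0.134), the old late difference 1.44 (SE 0.35, adjusted p = 0.00203) and the TRAP difference 1.92 (SE 0.34, adjusted p = 0.000121).

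Each gene was also set against the microglial markers of the same library, as its log2 CPM minus the mean log2 CPM of the 25 markers, with no test. B2m stood above them by 1.33 ± 0.12 (SD) in the 10 young inputs, by 1.35 ± 0.15 in the 12 old early and 1.47 ± 0.20 in the 7 old late inputs, and by 0.61 ± 0.26 in the 7 TRAP libraries. H2-K1 went from 0.26 ± 0.20 in young to 0.46 ± 0.37 in old early and 0.65 ± 0.26 in old late input, and H2-D1 from 1.00 ± 0.22 to 1.18 ± 0.27 and 1.39 ± 0.41, all with overlapping ranges. H2-Q4 went the other way, from -0.09 ± 0.16 to -0.50 ± 0.29 and -0.40 ± 0.17. Tap1 stayed within 1 SD, at -2.45 ± 0.30, -2.41 ± 0.35 and -2.60 ± 0.31. In TRAP the mean of each gene lay lower against the markers than in old late input: H2-K1 stood at -0.83 ± 0.54 and Tap2, at -0.71 ± 0.28 in input, at -3.54 ± 0.07.

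Early and late induction in old mice were compared directly in old late against old early input. None of the 10 genes was called, against 0.0334% of 14948 genes, and neither DESeq2 nor limma voom called any of them (0 and 0). At an unadjusted p under 0.05 there were 6 of the 10, beside 11.6% of all genes. Nlrc5 had the largest difference, log2 0.78 (SE 0.32, edgeR adjusted p = 0.332), and B2m the smallest adjusted p, 0.185, with a difference of 0.31 (SE 0.09). Tap1 and Tap2 differed by -0.01 (SE 0.16) and 0.07 (SE 0.11). This comparison turned on old early libraries 5 and 2. Both were left out after their values were seen. Without replicate 5, B2m passed (0.34, adjusted p = 0.0479; 1.10% of all genes called), and without both, H2-K1 (0.50), H2-D1 (0.56), H2-Q4 (0.42), H2-T23 (0.57) and B2m (0.37) passed with edgeR adjusted p from 0.0031 to 0.018, beside 6.03% of all genes called. Among females alone H2-T23 (0.67, adjusted p = 0.00632) and B2m (0.44, adjusted p = 0.044) passed, beside 1.22% of all genes.

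**Figure D3:**
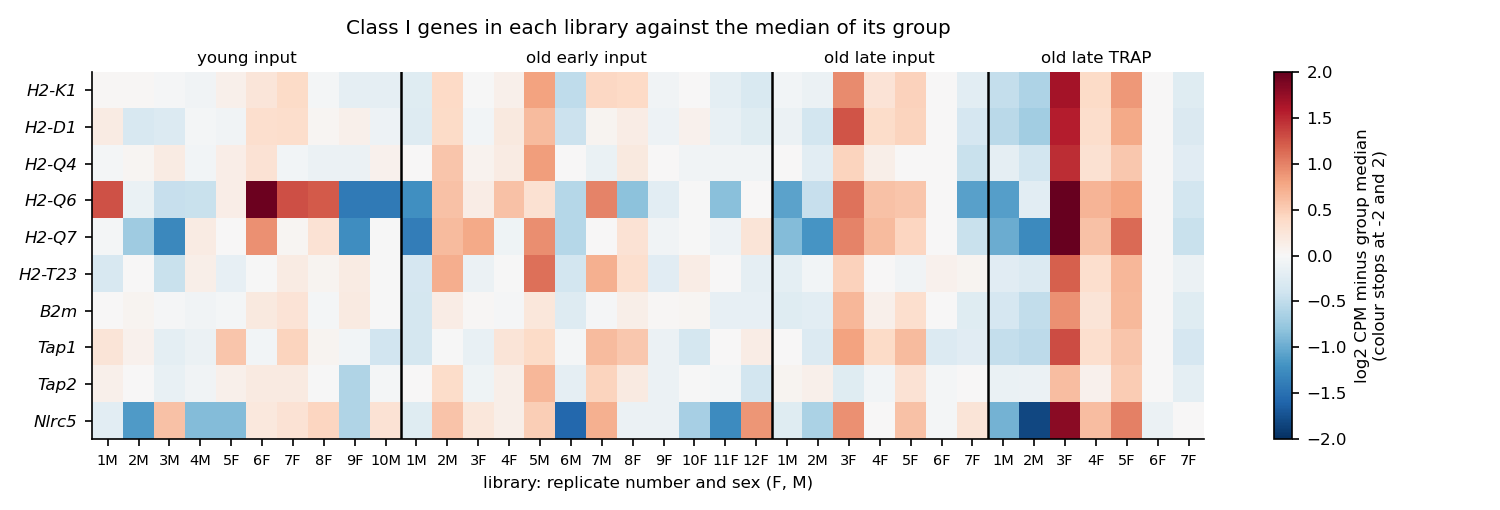
Each gene's log2 CPM in each library minus the median of its group, with libraries in columns by group and replicate number, F for female and M for male, and the colour scale stopping at -2 and 2. All 10 genes lay above the group median in old early replicate 5 and in TRAP libraries 3, 4 and 5, and all 10 below it in TRAP libraries 1 and 2; at least 9 lay on one side in 6 other columns, among them old early replicates 2 (above) and 6 (below) and the input of animal 3 (above).

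Within groups the class I genes moved together from animal to animal. Over the 29 inputs, after group and sex were taken out, the 45 pairs of the 10 genes had a median Pearson r of 0.532, from 0.28 to 0.899. These points share their libraries' depth and cell composition, and paralogs share reads, so r is a description. Old early replicate 5, a male, was the highest of its group for 7 of the 10 genes. It also had the highest blood score of the group, a mean log2 CPM of 5.04 over blood marker genes where the next library had 3.2, and the highest T and NK marker sum, 6.43 CPM where the next had 4.96. Old early replicate 2, also a male, read 19.6 CPM of H2-T23 and 27.8 CPM of H2-Q4, with the group's second highest blood score and its highest endothelial and border macrophage marker sums, 228 and 18.3 CPM. Old early replicate 7, a male with 19.3 CPM of H2-T23 and the lowest H2-Q4 of the group, read 16.6 CPM of border macrophage markers. Choroid plexus markers, a sign of tissue next to the hippocampus, summed to 2554 to 4194 CPM in old early replicates 2, 5, 7 and 8. The other old early libraries held 53.6 to 200 CPM. The sum also varied widely in young input, 56.5 to 3184 CPM (median 2039), and in old late input, 55.2 to 3569 CPM (median 2077). The old early median was 116 CPM. In old late against old early input these markers had a median log2 difference of 1.01, with 0 of 8 called. The part of these markers in the class I levels was not tested.

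In the late-induced group animal 3, a female, was the highest for 9 of 10 genes in input, Tap2 being the exception, and for 10 of 10 in TRAP. H2-D1 read 183 CPM in its input and 1946 in its TRAP library, where the next animal, 5, read 104 and 1105. In TRAP the ratio of animal 3 to animal 5 ran from 1.08 (Tap2) to 3.44 (H2-Q6), with a median of 1.75, while that of the microglial marker sum was 1.03. The T and NK marker sum of animal 3 was the highest of its group in input (8.46 CPM, next 4.86) and in TRAP (13.1 CPM, next 7.71), at low counts. In its TRAP library 108 counts were of Ccl5, a chemokine gene that other cells also express, 33 of Cd4, 31 of Cd8a and 24 of Lck, while the CD3 genes of the T cell receptor complex, Cd3e, Cd3d and Cd3g, held 3.56, 0 and 2. In its input Lck held 34.4 counts, Cd4 24, Ccl5 20, Cd8a 18 and Cd3e 13, and Trac and Trbc2 were listed at 0 in all libraries. Their part in the values of animal 3 was not tested. With both libraries of animal 3 left out, TRAP still exceeded input for 10 of 10 genes, by log2 0.90 (H2-Q4) to 3.29 (B2m). The share of all genes called in that fit is not given here, and with all animals 30.4% were called higher.

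The animals kept nearly 1 order in TRAP. Animal 3 was the highest, then 5, then 4, for 10 of 10 genes, and the whole order (3, 5, 4, 6, 7, 1, 2) was that of the microglial marker sum for 6 of 10 (H2-K1, H2-D1, H2-Q7, H2-T23, B2m and Tap1). That sum ran from 18504 CPM in animal 2 to 30012 in animal 3, and its part in the order was not tested. The share of all genes with this order is not given here.

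**Figure D4:**
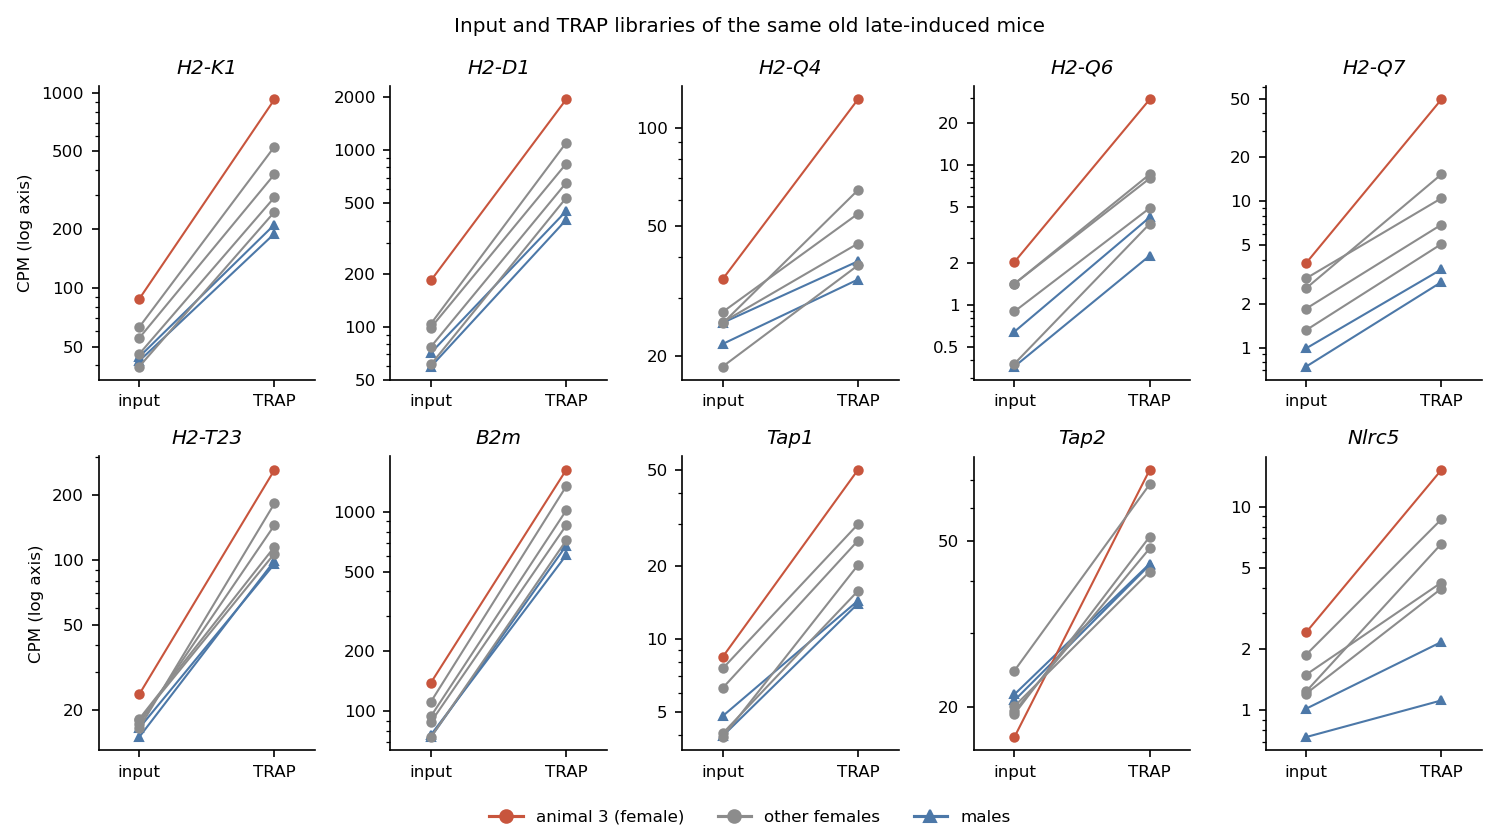
Input and TRAP level of each gene in the 7 old late-induced mice, in CPM on log axes, with a line joining an animal's libraries, animal 3 in red, the other females in grey and the 2 males in blue. Each of the 70 lines goes up from input to TRAP, and the line of animal 3 ends highest in every panel.

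No class I gene was called between the sexes in whole tissue. Over the 29 inputs 0 of the 10 genes was called between males and females (edgeR), against 0.174% of all genes, and 0 had an unadjusted p under 0.05 beside 10.9% of all genes; DESeq2 and limma voom also called 0. In the early-induced inputs, no gene of 14547 had a called interaction of age and sex (edgeR), and at an unadjusted p under 0.05 there was 1 of the 10, H2-T23, beside 15.6% of all genes. H2-T23 read 9.83 ± 1.59 CPM (SD, n = 5) in young and 16.5 ± 7.12 (n = 5) in old early males, and 11 ± 1.04 (n = 5) and 11.8 ± 1.67 (n = 7) in females. The interaction was log2 0.65 (SE 0.28, edgeR adjusted p = 0.275), and DESeq2 and limma voom called 0 of the 10. The choroid plexus markers had a median interaction of log2 2.76, with 0 of 8 called, and their part was not tested.

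In TRAP the 2 males read low, a comparison made after these values were seen. Both lay below all 5 females for 7 of the 10 genes, and for 13.1% of all 14763 genes tested. Nlrc5 read 2.17 and 1.12 CPM in the males and 3.97 to 15.2 in the females, a log2 difference of -2.17 (SE 0.59) whose edgeR adjusted p was 0.207, the smallest of the 10. B2m read 679.7 and 609 CPM against 722 to 1631 (-0.75, SE 0.27, adjusted p = 0.293). None of the 10 was called by edgeR, against 0.0610% of all genes, with 7 at an unadjusted p under 0.05 beside 13.5% of all genes. The fitted differences shrank without animal 3, by over 1.5 times for H2-Q4 (from -0.78 to -0.42), H2-Q6 (from -1.71 to -0.93) and H2-Q7 (from -2.44 to -1.56), and to -1.78 for Nlrc5 and -0.59 for B2m. Microglial markers also read lower in the males, with a median log2 difference of -0.35 over 25 genes, and their part was not tested.

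Other genes of the pathway were read from lists of known function. Their counts stand beside 13% of all genes called higher in old early and 17% in old late against young input, and 30.4% in TRAP. Of 6 peptide-loading genes, Tapbpl (log2 0.39), Tapbp (0.29), which encodes tapasin, and Canx (0.09) were called higher in old early than in young input (edgeR), and the same 3 genes in old late input (0.48, 0.45 and 0.12). In TRAP 6 of 6 were called higher, led by Tapbp at 1.99 (SE 0.13, edgeR adjusted p = 6.53e-10). Of 5 immunoproteasome genes, whose products cut proteins into peptides suited to class I, 3 were called higher in each age comparison and 5 in TRAP. Psmb8, a catalytic subunit, differed by log2 0.85 (SE 0.13) in old early, 1.00 (SE 0.15) in old late and 3.61 (SE 0.20) in TRAP. Of the other class I and class I-like heavy chains 10 were tested in input, and Mr1 (0.35 and 0.53) and H2-T22 (0.34 and 0.38) were called higher in both old groups and Fcgrt (0.39) in old late. These were 2 of 10 in old early and 3 of 10 in old late, where 25.6% and 34.5% of all genes were called in either direction. In TRAP 8 of 9 were called higher, with H2-M3 at 3.06 and Hfe at 2.69. Among 10 class I receptor genes only 3 were tested in input, 3 called higher in old early and 2 in old late against young. In TRAP 3 of the 4 tested were called higher, among them Lilrb3 at 3.99 and Lilrb4 at 3.79.

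Of 15 transcription factors that act on class I promoters, 3 were called higher and 1 lower in each age comparison (edgeR), a share near that of all genes called in old early (25.6%) and below it in old late (34.5%). Irf8, a factor of the myeloid lineage, had the largest difference, log2 0.90 (SE 0.11) in old early and 1.16 (SE 0.12) in old late, and Nfya, a Y box binding subunit, differed by -0.22 and -0.20. In TRAP 10 of 15 were called higher and 1 lower, with Irf8 at 4.20 (SE 0.19) and Irf1 at 1.59 (SE 0.19). Of 7 interferon receptor and kinase genes, Ifngr1 was called higher in both old groups (0.20 and 0.36), Tyk2 lower in old late (-0.42, SE 0.10), and 7 of 7 were called higher in TRAP. Against young input the called share of this list lay below that of all genes in both old groups (25.6% and 34.5%). A list of 5 genes held 4 of MHC class II, which presents peptides from outside the cell, and the class II transactivator Ciita. Of the 5, 0 were called in old early against young input (edgeR, 2 at an unadjusted p under 0.05, DESeq2 0, limma voom 0). In old late against young input the 4 class II genes were called higher and Ciita lower (-0.89). Cd74, the invariant chain, had the largest difference, 2.08 (SE 0.43, edgeR adjusted p = 0.000472).

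The genes whose levels followed the members most closely were named by Pearson r over the 29 inputs after removing group and sex, among 12950 genes. For B2m they were Spp1 (0.761), Gnai2 (0.752), C1qb (0.749), Grn (0.722) and Cd74 (0.716). For H2-D1 they were Gnai2 (0.785), C1qb (0.762), Ppp2r4 (0.753), Gbp3 (0.745) and Rpl31 (0.736). All points share library depth and cell composition, and no p is given.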

How the data were processed

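The data are 36 polyA RNA libraries of mouse hippocampus, 29 inputs and 7 TRAP libraries. The authors deposited estimated counts per gene, of which 77.4% of the nonzero values are not whole. The submitters' processing notes name mm10 and DESeq2 with no role, and the aligner, counter, read length and strand setting are not given in the sources used here. Groups, sex and animal numbers come from the labels, and nothing beyond the labels says that replicates are separate animals. The members and lists were chosen with earlier results of these data known.

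Counts were rounded and genes kept by edgeR's filterByExpr (minimum count 10), scaled by TMM and tested with edgeR 4.0.16 (R 4.3.3) by quasi-likelihood, with Benjamini-Hochberg adjustment over all genes and a threshold of 0.05. One fit held the 29 inputs (group and sex), another the 14 old late libraries (fraction and sex) and the last the 22 early-induced inputs (age by sex). CPM uses the same scaling over all libraries, log2 CPM adds a prior count of 2, and 3 counts are taken as the floor. Male and female TRAP libraries were compared after their values were seen. Named genes are all 10 members, up to 4 called genes with the largest difference in each pathway list, the 5 genes most like B2m and like H2-D1, and Cx3cr1. Old early replicates 2, 5 and 7 and animal 3 were described after their values were seen. Of 189 list genes 186 were matched, 5 of them by gene ID. No 2 libraries held identical values. TRAP and input libraries are paired by the animal number in the labels, and their deviations from the group means correlated at 0.456 to 0.612 within the 7 animals (median of other pairs -0.164, 11712 genes). Scaling, filter, tool (DESeq2 1.42.0, limma 3.58.1), covariates, libraries and the sharing of H2-Q reads were varied, and the fits were tested on simulated data. Sequences come from RefSeq (GRCm38.p6) and GENCODE M21, read with Biopython 1.88.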

Additional observations from a re-analysis of the deposited data

Results flagged for a closer look

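In the old late inputs the H2-T23 level of replicate 3 (log2 CPM 4.58, next highest 4.20) stood apart from the other 6 libraries, its gap taking a share of 0.578 of the group's range where 0.568 is the limit for 7 samples. In young input the Tap2 level of replicate 9 was low (log2 CPM 3.22, next lowest 3.68), with a share of 0.581 where 0.466 is the limit for 10. Each was 1 of 30 gene and group pairs examined this way, of which chance alone flags about 1 in 20, or 1.5. The old early group, with 12 libraries, was not examined. Without old late replicate 3, H2-T23 still differed between old late and young input (0.71, edgeR adjusted p = 0.00197).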

How the results depend on the processing

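The number of the 10 genes called stayed within 1.5 times its main value under each scaling, filter and tool, and changed with the samples. Old early against young gave 3 among females alone. Old late against old early gave 2 among females alone and 5 with old early replicates 2 and 5 left out, a choice made after seeing the data. With each library left out in turn, the counts ran from 6 to 7 for old early and from 8 to 10 for old late against young, from 0 to 1 for old late against old early (1 without old early replicate 5), stayed at 10 for TRAP and at 0 for sex. With the animal as a replicate block, possible only for TRAP against input, whose libraries are paired, 10 of 10 passed (H2-K1 2.70, B2m 3.31), as without it. The share of all genes passing with the block is not given here. Small differences changed sign. H2-Q4 in old early against young was -0.03 among females and -0.07 without replicates 2 and 5. Tap1 in old late against old early was 0.01 with only the groups compared, 0.02 without the sex term, 0.17 among females, 0.03 without replicates 2 and 5, and -0.12 to 0.06 with 1 library left out. Between the sexes, H2-Q6 and H2-Q7 were 0.06 with H2-Q reads summed, and with 1 library left out H2-K1 ran from -0.13 to 0.01 and H2-T23 from 0.00 to 0.15. The cause was not tested. H2-T23 in old early and H2-Q6 in old late against young lay near the threshold and were also lost with no filter (edgeR adjusted p 0.0524 and 0.0557) and with only the groups compared (0.0614 and 0.0833). Which genes were called in old early against young also changed with the tool. There limma voom lost H2-T23 (0.33, limma voom adjusted p = 0.104) and gained H2-Q6 (1.4, limma voom adjusted p = 0.0438). Depth limits H2-Q6, H2-Q7 and Nlrc5, with at most 20, 16.7 and 15 counts in a young library.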
